A study of Homo sapiens with 40 samples.

Results

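The comparison described here asks how far the RNA response to heregulin (HRG, also called neuregulin 1) after 12 h differed between BT474, a HER2-positive human breast cancer cell line that is sensitive to the HER2 antibody trastuzumab, and BT474R, its resistant derivative. For each gene it is the change from vehicle to HRG in BT474R minus the change from vehicle to HRG in BT474, and it was computed for all 24641 genes that had enough counts to be tested. It used 8 of the 40 RNA-seq libraries of the study, 2 from each of 4 groups: BT474 with vehicle, BT474 with HRG, BT474R with vehicle and BT474R with HRG. All 4 groups were serum-starved and then kept with their additive for 12 h, which was HRG or, for the vehicle, water. The other 32 libraries held the same lines at 0 h, 1 h and 24 h and with epidermal growth factor (EGF). BT474R is 1 clone that grew out under trastuzumab, so a difference between the lines is a difference between this clone and its parent population. The labels number the 2 libraries of a group as replicates without saying that they came from separate cultures, so p-values measure the spread between these samples, which may be technical.

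HRG is the ligand of ERBB3 and ERBB4. Ligand binding opens these receptors to pairing with ERBB2 (HER2), which has no known ligand of its own, and the pair feeds the PI3K-AKT and RAS-ERK pathways that drive growth, protein synthesis and cell cycle entry in breast epithelium. ERBB2 can also be activated without a ligand, by pairing with itself or with other receptors of the family. Trastuzumab binds ERBB2 outside the cell.

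Each of the 8 libraries had between 22697167 and 30024539 counts on genes, with 13.4% to 15% of them on the 50 highest genes. At this depth 3 counts, taken as the detection floor, correspond to at most 0.132 CPM (counts scaled to 1000000 per library). Luminal markers were high in all 8 libraries, with ERBB2 between 7518.8 and 9732.7 CPM, KRT8 between 1226.7 and 2633.9 and FOXA1 between 540 and 630, whereas GATA3 spanned 21.8 to 546. The fibroblast genes COL1A2, PDGFRB and DCN reached at most 0.0432 CPM, the leukocyte genes PTPRC and CD3E at most 0.0682 and the endothelial gene PECAM1 0.173. COL3A1 reached 0.621 CPM, the macrophage gene CD68 was at 1.70 to 3.54, VWF reached 15.9 and COL1A1 193, and their part in the results was not tested. The summed level of the 8 luminal markers was 13487 to 13583 CPM with vehicle and 15415 to 15556 with HRG in BT474, and 15130 to 15280 and 15887 to 16604 in BT474R. These are bulk samples, in which fewer cells with a given RNA and less of that RNA per cell cannot be told apart. The replicates of a group differed by more than counting noise in all 4 groups, with a median chi-square per gene of 0.697 to 0.87 against 0.455 for 1 library sampled again.

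HRG changed fewer genes in BT474R, and most genes whose response differed changed by less there. Against vehicle, 5816 genes changed in BT474 (23.6% of the genes tested, 3437 or 13.9% up and 2379 or 9.65% down) and 1606 in BT474R (6.52%, 1020 or 4.14% up and 586 or 2.38% down), by the quasi-likelihood F test of edgeR at a Benjamini-Hochberg adjusted p below 0.05. The count in BT474 was 3834 to 4441 with 1 of its 4 libraries left out, the lowest without HRG replicate 2, and that in BT474R was 688, 766 and 982 without BT474R HRG replicate 2, BT474R vehicle replicate 1 and BT474R vehicle replicate 2. The change itself differed between the lines for 1003 genes, 4.07% of those tested. For 716 of them (2.91%) the HRG change was lower in BT474R and for 287 (1.16%) it was higher, and 3737 genes had an unadjusted p below 0.05. Genes that rose in BT474 had a median HRG effect of 0.34 on the log2 scale there and 0.13 in BT474R, and those that fell had medians of -0.46 and -0.15. The genes that rose in BT474R showed medians of 0.33 in BT474R and 0.45 in BT474, and those that fell there showed -0.32 and -0.34. Those lists were chosen by the same tests, so their medians describe them and are no test.

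Most of the 1003 genes responded in BT474 and passed no test in BT474R. This class held 703 genes (70.1%), of which 494 had risen and 209 had fallen in BT474. A further 228 genes (22.7%) moved the same way in both lines, 222 of them by less in BT474R and 6 by more. Only 9 of the 1003 (0.897%) changed significantly in both lines in opposite directions, 43 (4.29%) passed the test in BT474R but not in BT474, and 20 (1.99%) passed in neither line. The absolute HRG effect was smaller in BT474R for 936 of the 1003 (93.3%), compared with 61.8% of all genes tested. When the HRG-minus-vehicle difference was taken for each of the 4 pairs of libraries within a line, the pairs of one line did not overlap those of the other for 1002 of the 1003 genes, compared with 33.6% of all genes tested, and this is partly what the test itself selects for. The count depended on each library: leaving out BT474R vehicle replicate 2, BT474 vehicle replicate 2, BT474 HRG replicate 2, BT474R HRG replicate 2, BT474 vehicle replicate 1 or BT474R vehicle replicate 1 left 385, 402, 477, 496, 513 and 635 genes. All 1003 genes kept the direction of their difference with each of the 8 libraries left out in turn, and 246 kept the call throughout.

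**Figure D1:**
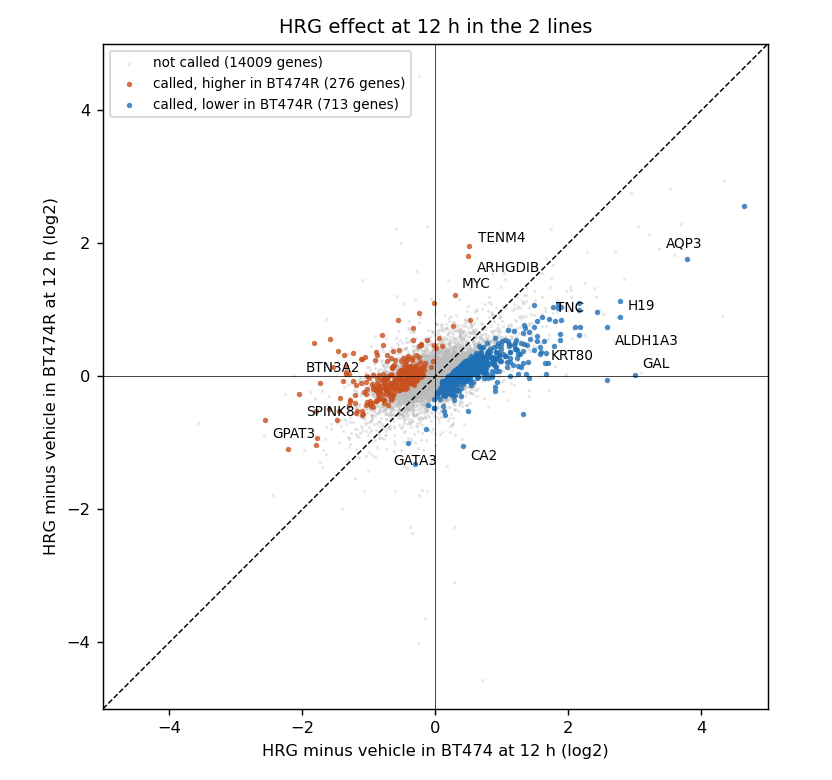
HRG minus vehicle at 12 h (log2) in BT474 (x axis) against BT474R (y axis), 1 point per gene with a mean of at least 1 CPM over the 8 libraries, with the dashed line marking equal effects. Genes whose effect was lower in BT474R (blue) lie mainly to the right at small values of y, genes whose effect was higher (orange) lie mainly to the left, and ARHGDIB, MYC and TENM4 lie above the line on the side of a rise in both lines.

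The strongest differences by p-value were genes that HRG raised in both lines and by less in BT474R. KRT80, an epithelial keratin of differentiating layers, was at 39.7 and 43.6 CPM in BT474 vehicle, 131 and 127 in BT474 HRG, 71.2 and 70.4 in BT474R vehicle and 103 and 101 in BT474R HRG. With HRG it rose by 1.63 (log2) in BT474 and by 0.53 in BT474R, a difference of -1.11 ± 0.080 (SE; edgeR adjusted p = 2.06e-11). Thus the resistant line started higher and ended lower, and no library of one group overlapped another group.

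S100A14, a calcium-binding protein of epithelia, went from 340.1 and 338 to 689 and 682 CPM in BT474 and from 392 and 419.7 to 519 and 509.7 in BT474R (difference -0.67 ± 0.058, edgeR adjusted p = 1.78e-09). TNC encodes tenascin C, a matrix glycoprotein, and had 150.0 and 146 CPM in BT474 vehicle, 480.0 and 489 with HRG, 109 and 112 in BT474R vehicle and 207 and 195 with HRG. Its rise was 0.85 smaller in BT474R on the log2 scale (1.71 against 0.86, SE 0.082, edgeR adjusted p = 2.62e-08). For both genes the groups were separate, and HRG left BT474R below HRG-treated BT474. TAGLN2, an actin-binding protein, was at 101 and 99.5 CPM in BT474 vehicle, 195 and 203 in BT474 HRG, 97.5 and 102 in BT474R vehicle and 114 and 121 in BT474R HRG. Its vehicle levels overlapped between the lines, its HRG level was lower in BT474R, and the difference was -0.76 ± 0.075 (edgeR adjusted p = 3.1e-08).

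In other genes of this kind BT474R vehicle already stood at or above the level that HRG gave in BT474. DUSP4, a phosphatase that switches off MAP kinases, had 469 and 481 CPM in BT474 vehicle, 980.4 and 979.8 in BT474 HRG, 1304 and 1374 in BT474R vehicle and 1626 and 1692 in BT474R HRG. Its HRG effect was 1.04 in BT474 and 0.31 in BT474R, a difference of -0.74 ± 0.073 (edgeR adjusted p = 3.1e-08). ALDH1A3, an enzyme that makes retinoic acid, went from 2.59 and 2.52 to 14.5 and 16.2 CPM in BT474 and from 14.6 and 13.5 to 23.4 and 23.6 in BT474R, so that vehicle-treated BT474R overlapped HRG-treated BT474. That is a 6.02-fold rise in BT474 and a 1.68-fold rise in BT474R (difference -1.84 ± 0.18 on the log2 scale, edgeR adjusted p = 2.66e-08). AQP3, a channel for water and glycerol, was at 1.31 and 1.48 CPM in BT474 vehicle, 19.9 and 18.8 in BT474 HRG, 19.9 and 23.2 in BT474R vehicle and 77.3 and 70.4 in BT474R HRG. The 13.8-fold rise in BT474 compared with a 3.41-fold rise in BT474R (difference -2.02 ± 0.30 on the log2 scale, edgeR adjusted p = 3.7e-05), although the level reached was higher in BT474R. H19, an imprinted non-coding RNA, was at 5.24 and 4.08 CPM in BT474 vehicle and 34.8 and 30.1 with HRG, and at 2287 and 2856 in BT474R vehicle and 4387 and 5138 with HRG (difference -1.90 ± 0.31, edgeR adjusted p = 0.000124). The H19 value is uncertain, since the table holds numbered copies of that row and the call was lost with limma-voom. With the copies summed the difference for H19 was -1.86.

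A second set rose in BT474 with no rise detected in BT474R. GAL, the neuropeptide galanin, had 0.276 and 0.519 CPM in BT474 vehicle, 3.11 and 3.2 in BT474 HRG, 0.887 and 1.74 in BT474R vehicle and 1.64 and 1.11 in BT474R HRG. It rose 8.0-fold in BT474, while the value in BT474R was 0.019 ± 0.29 (log2), and the difference of -2.98 ± 0.45 was the lowest among the genes named by size (edgeR adjusted p = 3.7e-05). PLXNA2, a receptor for semaphorins, went from 10.3 and 8.83 to 29.3 and 33 CPM in BT474 and from 16 and 14.9 to 15.9 and 19.6 in BT474R (difference -1.49 ± 0.22, edgeR adjusted p = 2.99e-05). In both genes the BT474R vehicle and HRG libraries overlapped, whereas those of BT474 were well apart. The calls of GAL, PLXNA2, AQP3, ALDH1A3, KRT80, S100A14, TNC, DUSP4 and TAGLN2 held with each of the 8 libraries left out.

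The remaining genes of large negative difference were less firm. CTB-3M24.3 (-2.63 ± 0.71), RGS6, a regulator of G protein signaling (-1.88 ± 0.49), COL4A1, a basement membrane collagen (-1.63 ± 0.47), and CPLX2, a regulator of vesicle fusion (-1.54 ± 0.46), kept the call without 2, 3, 1 and 1 of the 8 libraries. CTB-3M24.3 kept it without BT474 HRG replicate 1 and BT474R vehicle replicate 1, RGS6 without BT474 HRG replicate 1, BT474R HRG replicate 1 and BT474R vehicle replicate 2, COL4A1 without BT474R vehicle replicate 2 and CPLX2 without BT474R HRG replicate 1. SERPINA3, a secreted protease inhibitor (-1.45 ± 0.43), and MSRB3, a methionine sulfoxide reductase (-1.44 ± 0.43), lost it whichever library was left out. CPLX2, SERPINA3 and MSRB3 also lost it with DESeq2 size factors, limma-voom, thinning to equal depth and summed copy rows, the first pair without a filter too, COL4A1 with limma-voom and thinning, and CTB-3M24.3 with thinning. The adjusted p of these 6 genes in edgeR then reached 0.333, 0.395, 0.361, 0.231, 0.567 and 0.2. CA2, carbonic anhydrase 2, was at 1.73 and 0.999 CPM in BT474 vehicle, 1.81 and 1.88 in BT474 HRG, 1.6 and 1.91 in BT474R vehicle and 0.781 and 0.924 in BT474R HRG. It fell in BT474R by 1.05 (log2) and did not pass the test in BT474 (difference -1.46 ± 0.35, edgeR adjusted p = 0.0117), and the call was lost without replicate 2 of either BT474 group, BT474R HRG replicate 1 or BT474R vehicle replicate 2 (adjusted p up to 0.113), and with thinning.

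Genes with a higher HRG effect in BT474R were for the most part genes that HRG lowered in BT474. BTN3A2, a butyrophilin recognised by gamma-delta T cells, had 9.28 and 8.59 CPM in BT474 vehicle, 2.85 and 2.57 in BT474 HRG, 3.55 and 3.72 in BT474R vehicle and 3.39 and 3.4 in BT474R HRG. It fell by 1.73 (log2) in BT474, and the difference was 1.63 ± 0.27 (edgeR adjusted p = 0.000194). BTN3A3, its close paralog, went from 3.73 and 4.71 to 1.17 and 1.6 CPM in BT474 and from 0.399 and 0.648 to 0.93 and 0.665 in BT474R (difference 2.15 ± 0.44, edgeR adjusted p = 0.00219). The BTN3A genes are near-identical in sequence and how reads shared between them were counted is not given in the sources used here, so both values are uncertain.

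MAML2, a coactivator of Notch signaling, was at 2.55 and 2.12 CPM in BT474 vehicle, 0.647 and 1.15 in BT474 HRG, 3.64 and 3.92 in BT474R vehicle and 4.13 and 4.32 in BT474R HRG (difference 1.50 ± 0.29, edgeR adjusted p = 0.00108). HOXB6, a homeobox transcription factor, went from 2.24 and 1.56 to 0.82 and 0.695 CPM in BT474 and from 8.43 and 8.97 to 8.56 and 9.72 in BT474R (difference 1.42 ± 0.27, edgeR adjusted p = 0.000957). Both fell in BT474 and passed no test in BT474R, and their BT474R libraries all lay above all BT474 libraries. SPINK8, a member of the Kazal-type protease inhibitors, had 1.52 and 1.56 CPM in BT474 vehicle, 0.302 and 0.417 in BT474 HRG, 6.96 and 6.24 in BT474R vehicle and 5.77 and 5.17 in BT474R HRG (difference 1.79 ± 0.33, edgeR adjusted p = 0.00062). GPAT3, an enzyme of triglyceride synthesis, fell from 5.55 and 4.44 to 0.949 and 0.764 CPM in BT474 and was at 0.665 and 0.58 in BT474R vehicle and 0.446 and 0.333 in BT474R HRG (difference 1.90 ± 0.45, edgeR adjusted p = 0.0099). Its BT474R vehicle level lay below all BT474 libraries. BEND5, a transcriptional repressor, fell in BT474 (1.14 and 0.639 CPM in vehicle, 0.302 and 0.208 in HRG) and was at 1.77 and 2.83 in BT474R vehicle and 2.9 and 3.73 in BT474R HRG (difference 2.33 ± 0.54, edgeR adjusted p = 0.00768). The calls were lost for GPAT3 without BT474 HRG replicate 2, BT474R HRG replicate 1 or BT474R vehicle replicate 2 (adjusted p up to 0.152), for BEND5 without BT474 HRG replicate 2 or BT474 vehicle replicate 1 (up to 0.166), and for HOXB6 without BT474 vehicle replicate 1 (0.0528). GPAT3 lost its call with thinning too.

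Also higher were COL2A1, a cartilage collagen (1.59 ± 0.35), and the non-coding genes THBS3-AS1 (1.84 ± 0.39), FOXD3-AS1 (1.70 ± 0.36) and MAILR (1.68 ± 0.48), which all fell in BT474. Whether the counting used strand is not given in the sources used here, so reads of the antisense genes cannot be told apart from reads of their partner genes. THBS3-AS1 lost the call without BT474R HRG replicate 2 (edgeR adjusted p = 0.0876) and FOXD3-AS1 without BT474 vehicle replicate 1 (0.0897). MAILR kept it only without BT474 HRG replicate 2 or BT474R vehicle replicate 2, and its difference moved to 2.91 without the latter. Thinning also ended its call.

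The 9 genes that changed in opposite directions kept the call of their difference in every alternative and with each library left out. Whether the calls within each line, which define this class, held too was not checked. Within BT474R their edgeR adjusted p lay between 0.00124 (DEGS1) and 0.0403 (FBXO28). ATP1B1, the beta subunit of the sodium pump, rose in BT474 from 179 and 166 to 217 and 216 CPM and fell in BT474R from 205 and 213 to 182 and 182. The effects were 0.32 and -0.20 on the log2 scale and the difference was -0.53 ± 0.069 (edgeR adjusted p = 4.86e-06). BT474R thus started near the level that HRG gave in BT474 and ended near the BT474 vehicle level. DEPTOR, an inhibitor of mTOR, fell in BT474 from 32.4 and 29.8 to 22.9 and 23.9 CPM and rose in BT474R from 17.3 and 19.3 to 22.1 and 23.4 (difference 0.72 ± 0.13, edgeR adjusted p = 0.000412). With HRG the lines overlapped in DEPTOR, and with vehicle they did not. FAM214B went from 24.9 and 25.6 to 18.6 and 18.4 CPM in BT474 and from 58.3 and 57.3 to 63.5 and 68.4 in BT474R (difference 0.64 ± 0.089, edgeR adjusted p = 1.13e-05), and IQGAP2, a scaffold of the IQGAP family, also fell in BT474 and rose in BT474R (0.61 ± 0.13). The other 5 rose in BT474 and fell in BT474R, namely DEGS1, a ceramide synthesis enzyme (-0.51 ± 0.076), NEBL, an actin-binding protein (-0.44 ± 0.076), FBXO28, an F-box protein (-0.48 ± 0.087), SLC7A2, a transporter of cationic amino acids (-0.40 ± 0.076), and NIBAN1, a stress-response protein (-0.68 ± 0.14). These are small effects, with fold changes within a line between 0.732 and 1.3. At 24 h the difference of ATP1B1 alone among them passed the test (-0.25, edgeR adjusted p = 0.0329). NEBL fell in both lines at 24 h, by 0.16 in BT474 and 0.24 in BT474R. IQGAP2 rose by 0.29 in BT474 at 24 h (edgeR adjusted p = 0.0187), and its difference of -0.14 had the reversed sign.

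In 6 genes the response had the same direction and was larger in BT474R, and 5 of them had a lower level in BT474R vehicle. ARHGDIB went from 49 and 47.1 to 68.4 and 66.9 CPM in BT474 and from 1.11 and 1.74 to 4.99 and 5.28 in BT474R, 1.41-fold against 3.5-fold (difference 1.32 ± 0.18 on the log2 scale, edgeR adjusted p = 1.03e-05). MYC, the growth-driving transcription factor, was at 33.3 and 31.7 CPM in BT474 vehicle, 39.7 and 40 in BT474 HRG, 2.53 and 3.1 in BT474R vehicle and 6.66 and 6.69 in BT474R HRG. It rose 1.22-fold and 2.34-fold (difference 0.94 ± 0.18 on the log2 scale, edgeR adjusted p = 0.00101), and all 4 BT474R libraries lay below all BT474 libraries. GATA3, the luminal master regulator, fell in both lines, from 546 and 544 to 418 and 397 CPM in BT474 and from 49.7 and 42.4 to 23.8 and 21.8 in BT474R (difference -0.59 ± 0.14, edgeR adjusted p = 0.00716). TENM4, a teneurin (1.45 ± 0.40), MYOF, a membrane-repair protein (0.33 ± 0.072), and SEMA5A, a semaphorin (0.50 ± 0.12), rose more in BT474R, and SEMA5A is the gene whose vehicle level was not lower in BT474R. The calls of GATA3 (without BT474R HRG replicate 2 or BT474R vehicle replicate 1, adjusted p up to 0.0888), MYOF (without replicate 1 of either BT474R group, up to 0.0753), SEMA5A (without replicate 1 of either BT474 group, BT474R HRG replicate 1 or BT474R vehicle replicate 2, up to 0.0977) and TENM4 (without 6 of the 8 libraries, all but replicate 2 of the BT474 groups, up to 0.165) were lost in edgeR. Thinning ended the calls of MYOF and TENM4, and limma-voom that of TENM4.

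**Figure D2:**
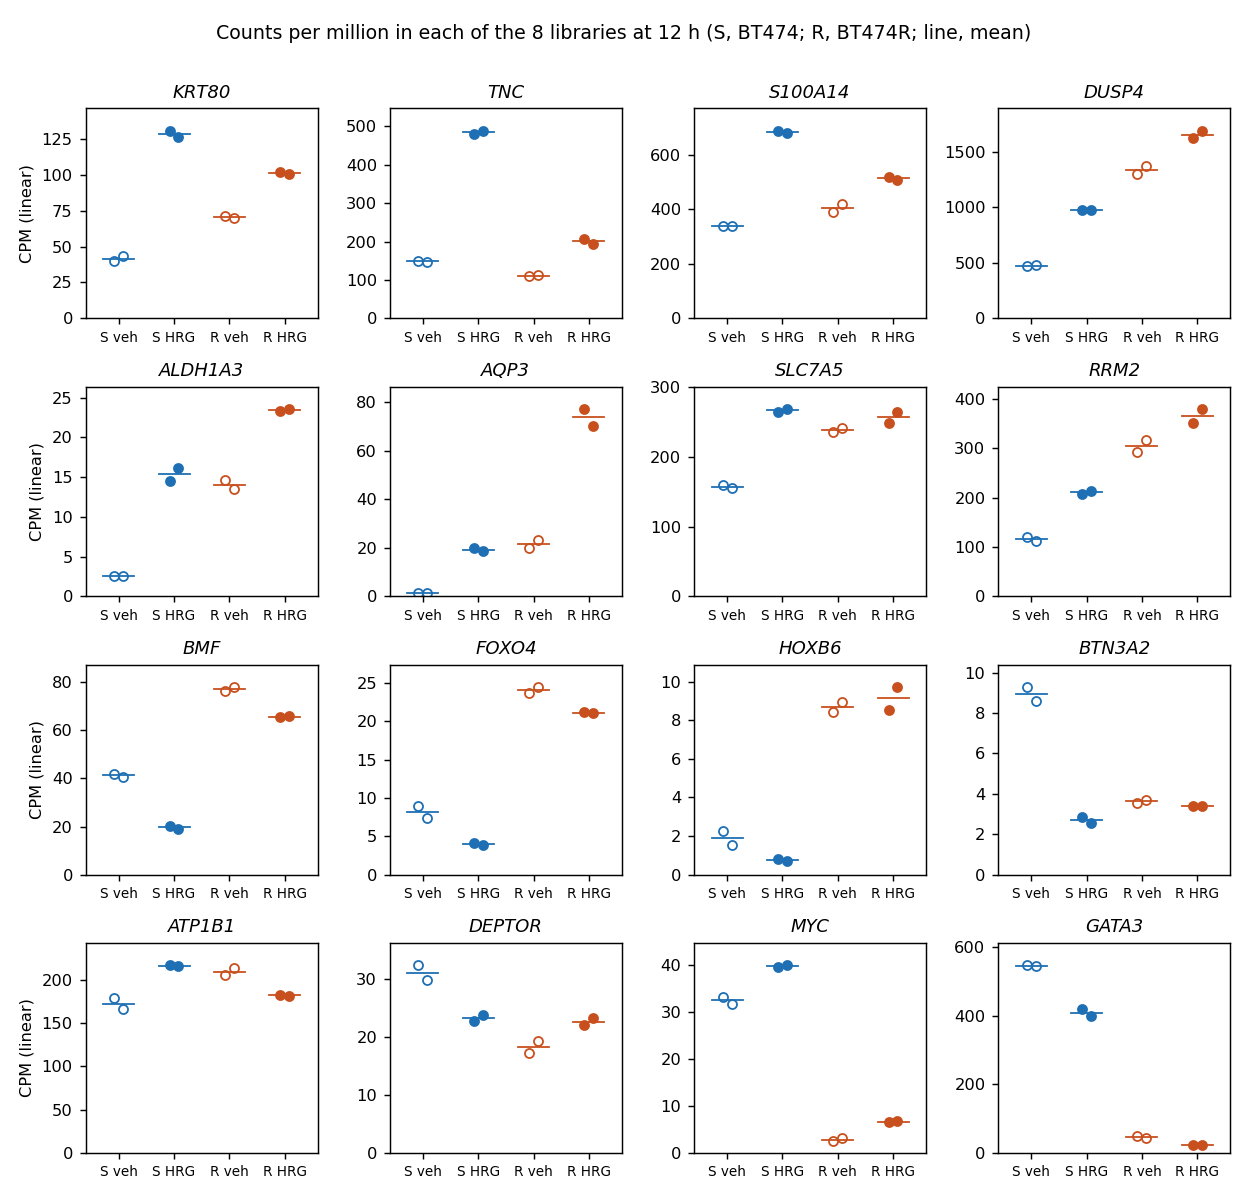
CPM (linear y axis from 0) of 16 genes in each of the 8 libraries at 12 h, with open points for vehicle, filled points for HRG, blue for BT474 (S), orange for BT474R (R) and a line for the mean of the 2 libraries. KRT80, TNC and S100A14 rise less in BT474R, SLC7A5, BTN3A2 and HOXB6 move in BT474 with little movement in BT474R, ATP1B1 and DEPTOR move in opposite directions, and MYC rises from a low level in BT474R.

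The promoters of 6 genes are shown because each stands for 1 kind of difference: ALDH1A3, AQP3 and TNC rose less in BT474R, SLC7A5 rose in BT474 without passing the test in BT474R, FOXO4 fell in BT474 without passing it in BT474R, and ATP1B1 moved in opposite directions. Each is the 250 bases before the gene's start in RefSeq on GRCh38.p14, written 5′ to 3′ on the gene's strand in lower case, with a motif found on that strand in capitals.
ALDH1A3, chr15:100879581-100879830, plus strand: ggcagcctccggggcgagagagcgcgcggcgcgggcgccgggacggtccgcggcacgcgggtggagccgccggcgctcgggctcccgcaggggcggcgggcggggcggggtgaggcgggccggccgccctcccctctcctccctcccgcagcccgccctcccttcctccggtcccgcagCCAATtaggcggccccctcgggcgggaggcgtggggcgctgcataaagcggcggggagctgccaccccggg
AQP3, chr9:33447594-33447843, minus strand: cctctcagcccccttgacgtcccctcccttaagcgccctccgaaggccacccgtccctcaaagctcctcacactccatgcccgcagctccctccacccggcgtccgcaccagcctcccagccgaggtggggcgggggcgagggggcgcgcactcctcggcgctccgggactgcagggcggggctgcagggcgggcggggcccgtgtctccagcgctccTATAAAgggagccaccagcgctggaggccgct
TNC, chr9:115118158-115118407, minus strand: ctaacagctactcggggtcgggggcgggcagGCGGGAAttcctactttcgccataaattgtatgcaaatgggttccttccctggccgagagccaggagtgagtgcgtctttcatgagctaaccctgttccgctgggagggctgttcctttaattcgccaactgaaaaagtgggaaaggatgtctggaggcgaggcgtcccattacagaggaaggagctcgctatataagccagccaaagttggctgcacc
SLC7A5, chr16:87869508-87869757, minus strand: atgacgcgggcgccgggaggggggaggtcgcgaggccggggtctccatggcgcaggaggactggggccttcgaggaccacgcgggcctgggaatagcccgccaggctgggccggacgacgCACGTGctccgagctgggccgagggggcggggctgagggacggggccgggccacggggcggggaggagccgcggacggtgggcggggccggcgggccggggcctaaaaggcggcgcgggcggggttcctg
FOXO4, chrX:71095601-71095850, plus strand: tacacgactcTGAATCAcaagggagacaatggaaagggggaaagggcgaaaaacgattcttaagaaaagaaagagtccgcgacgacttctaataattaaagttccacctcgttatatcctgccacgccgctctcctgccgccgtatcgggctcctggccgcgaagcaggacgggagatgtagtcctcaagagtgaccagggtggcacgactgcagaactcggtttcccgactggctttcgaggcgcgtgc
ATP1B1, chr1:169106440-169106689, plus strand: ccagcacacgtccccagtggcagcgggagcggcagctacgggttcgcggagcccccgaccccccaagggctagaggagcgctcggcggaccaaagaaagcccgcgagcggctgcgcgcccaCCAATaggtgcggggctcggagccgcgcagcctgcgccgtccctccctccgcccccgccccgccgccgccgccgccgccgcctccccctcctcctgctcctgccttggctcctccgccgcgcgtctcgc
The capitals mark the CCAAT box in ALDH1A3 and ATP1B1 (letters CCAAT) and the TATA box in AQP3 (TATAAA). They also mark an E2F motif in TNC (GCGGGAA) and an E-box in SLC7A5 (CACGTG). In FOXO4 they mark TGAATCA, a match to TGANTCA, the letters searched for AP-1. N stood for any base, so a match to TGANTCA need not be an AP-1 site. Of all 27305 promoters in the table, 33% held CCAAT, 11.1% TATAAA, 5.59% GCGGGAA, 6.49% CACGTG and 6.6% TGANTCA on either strand. The windows of the 559 matched genes with a lower and the 204 with a higher effect in BT474R held GCGGGAA in 9.66% and 3.43% of cases, against 7.66% of the 15307 matched genes tested. CCGGAAGT, the ETS motif, was in 7.69% and 2.94% against 5.49%, TTCNNNGAA (STAT) in 3.22% and 8.33% against 5.74%, and TGTTTAC (forkhead) in 1.79% and 4.41% against 2.31%. A further pair, TGACGTCA (CRE) and TGATGNAAT (ATF4 with C/EBP), was in 3.94% and 0.358% of the windows of genes with a lower effect, 3.43% and 0% of those with a higher effect and 2.4% and 0.634% of all tested. TGANTCA was in 4.83% of windows with a lower effect and 6.37% with a higher effect, against 4.83% of all tested. In the same order CACGTG was in 7.69% and 8.33% against 8.07%, and TATAAA in 5.55% and 8.33% against 7.06%. CCAAT was in 35.8% and 39.7% against 33.6%. Both strands were searched, and the letters of no motif contain those of another. These shares are descriptions without a test, and a match is not a bound site.

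Among the receptors, HRG lowered its own receptors in BT474. ERBB3 had 279 and 282 CPM in BT474 vehicle, 217 and 218 in BT474 HRG, 354 and 364 in BT474R vehicle and 341 and 334 in BT474R HRG. It fell by 0.36 (log2) in BT474 and the value in BT474R was -0.090 ± 0.049 (difference 0.27 ± 0.070, edgeR adjusted p = 0.0176), a call that was lost without either BT474 HRG library, BT474R HRG replicate 1 or BT474R vehicle replicate 1 (adjusted p up to 0.0667). ERBB4 fell in both lines, from 39.5 and 37.8 to 15.9 and 15.6 CPM in BT474 and from 12.6 and 12.6 to 6.73 and 6.43 in BT474R, and the difference of 0.37 did not pass the test (95% interval 0.0998 to 0.631, edgeR adjusted p = 0.139). ERBB2 itself was at 7873 and 7942 CPM in BT474 vehicle, 7569 and 7519.6 in BT474 HRG, 9666 and 9438 in BT474R vehicle and 9426 and 9733 in BT474R HRG. No difference in its HRG effect was detected, and the 95% interval of the difference was -0.034 to 0.18 on the log2 scale. EGFR, the EGF receptor, rose in BT474 from 92.9 and 89.6 to 123 and 117 CPM and was at 699 and 818 in BT474R vehicle and 752 and 827 in BT474R HRG (difference -0.34 ± 0.13, edgeR adjusted p = 0.144). For the adaptors that couple these receptors to their pathways, GRB7, GRB2, SHC1 and GAB1, the differences of 0.20, -0.17, -0.040 and -0.14 did not pass the test, and the receptor and adaptor list thus held 1 call among 8 genes (12.5%, against 4.07% of all genes).

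Of the 10 ligand genes tested, 4 rose with HRG in BT474 and 1 in BT474R. A difference was called for 1 (10%, against 4.07% of all genes). AREG, amphiregulin, went from 3.42 and 2.96 to 22.1 and 23.7 CPM in BT474 and from 0.355 and 0.58 to 1.34 and 1.33 in BT474R. It rose in both lines, by 2.84 and 1.46 on the log2 scale, and the difference of -1.37 ± 0.42 missed the threshold (edgeR adjusted p = 0.0582). EPGN, epigen, had 7 and 8 counts in BT474 vehicle, 24 and 43 in BT474 HRG, 6 and 3 in BT474R vehicle and 2 and 4 in BT474R HRG (difference -2.81 ± 0.84, edgeR adjusted p = 0.0483). With counts this low the call was kept only without BT474 HRG replicate 1, and the adjusted p reached 0.443 with another library left out. It was lost with DESeq2 size factors, thinning and summed copy rows as well. EREG, epiregulin, had 2 and 2 counts in BT474 vehicle, 8 and 11 in BT474 HRG and 0 in all 4 BT474R libraries, at or under the floor, so no difference is given. BTC, betacellulin, rose in BT474 from 3.48 and 2.44 to 6.56 and 5.83 CPM and was at 1.02 and 0.852 in BT474R vehicle and 0.93 and 1.22 in BT474R HRG (difference -0.84 ± 0.33, edgeR adjusted p = 0.169). EGF, TGFA, HBEGF, NRG2, NRG3 and NRG4 passed the test in neither line, with differences between -1.52 (NRG2) and 0.15, and NRG1 did not have enough counts to be tested. NRG2 had 3 counts or fewer in every library of BT474 vehicle and both BT474R groups, and HBEGF in BT474R vehicle. The differences of NRG2 and HBEGF are therefore uncertain.

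Counts of list members stand beside those of all genes tested, of which 13.9% rose in BT474 and 4.14% in BT474R, and 4.07% had a called difference (1.16% higher and 2.91% lower). Of the 14 MAPK output genes, 11 rose in BT474 and 10 in BT474R, with median effects of 1.01 and 1.07, and the difference was called lower in BT474R for DUSP4 and ETV5 and higher for MYC (21.4% in all, against 4.07% of all genes). ETV5, an ETS transcription factor, went from 7.66 and 8.63 to 22.5 and 18.9 CPM in BT474 and from 43.2 and 45.8 to 71.8 and 75.5 in BT474R (difference -0.61 ± 0.14, edgeR adjusted p = 0.00789). Among 23 feedback inhibitors, 3 were called lower (DUSP4, SPRED1 and SPRED2; 13%) and none higher, and among 27 immediate early factors 1 was lower (IER5) and 2 were higher (MYC and FOSL2; 11.1% in all). IER5, an early-response gene, rose from 5.45 and 4.91 to 12.7 and 12.7 CPM in BT474 and from 12.2 and 13 to 16.7 and 19 in BT474R (difference -0.79 ± 0.17, edgeR adjusted p = 0.00308). FOSL2, an AP-1 subunit, fell in BT474 from 156 and 158 to 118 and 112 CPM and was at 101 and 120.3 in BT474R vehicle and 101 and 116 in BT474R HRG (difference 0.42 ± 0.11, edgeR adjusted p = 0.027). Of these calls, those of DUSP4 and MYC held without each library. ETV5 lost its call without replicate 1 of either BT474 group or BT474R vehicle replicate 2 (adjusted p up to 0.104), IER5 without BT474 vehicle replicate 2 (0.0519), and SPRED2 whichever library was left out (up to 0.143), without a filter, with thinning to equal depth and with copy rows summed. FOSL2 kept it without BT474 HRG replicate 1, BT474R HRG replicate 1 or BT474R vehicle replicate 2 and lost it without any other (up to 0.221), and SPRED1 kept it without BT474 HRG replicate 1, BT474R HRG replicate 1 or BT474R vehicle replicate 1 (up to 0.143) and lost it with thinning.

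Genes of the PI3K and FOXO axis that HRG lowered in BT474 were among those with a higher effect in BT474R. Of the 32 genes listed, 4 were called higher (TXNIP, IGF1R, FOXO4 and PIK3R3) and 1 lower (PIK3R1), 15.6% against 4.07% of all genes. FOXO4, a forkhead factor that AKT keeps out of the nucleus, was at 8.97 and 7.35 CPM in BT474 vehicle, 4.14 and 3.89 in BT474 HRG, 23.7 and 24.4 in BT474R vehicle and 21.2 and 21.1 in BT474R HRG. It fell by 1.03 (log2) in BT474, the value in BT474R was -0.19 ± 0.10, and the difference was 0.84 ± 0.18 (edgeR adjusted p = 0.00428). TXNIP, an inhibitor of glucose uptake, fell from 286 and 275 to 219 and 222 CPM in BT474 and was at 381 and 412 in BT474R vehicle and 408 and 434 in BT474R HRG (difference 0.43 ± 0.077, edgeR adjusted p = 0.000498). IGF1R, the receptor of insulin-like growth factors, fell in BT474 from 74.6 and 73.6 to 60.9 and 64.7 CPM and had 29.5 and 29.6 in BT474R vehicle and 33.6 and 35 in BT474R HRG (difference 0.45 ± 0.099, edgeR adjusted p = 0.00467). PIK3R1, a regulatory subunit of PI3K, went the other way, at 84.1 and 83.5 CPM in BT474 vehicle, 92.4 and 92.3 in BT474 HRG, 83.2 and 82.8 in BT474R vehicle and 68.6 and 66.6 in BT474R HRG, with a fall in BT474R and a difference of -0.44 ± 0.098 (edgeR adjusted p = 0.00614). FOXO4 lost its call without BT474 HRG replicate 2 or BT474 vehicle replicate 1 (adjusted p up to 0.0731) and PIK3R1 without replicate 2 of either vehicle group (up to 0.0542).

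BMF, a pro-death member of the BCL2 family, was the 1 called gene of the 15 in that family (6.67%, against 4.07% of all genes). It fell in BT474 from 41.7 and 40.8 to 20.3 and 19.2 CPM, whereas BT474R had 76.2 and 77.9 with vehicle and 65.5 and 66 with HRG. The fall of 1.07 (log2) in BT474 compared with a value of -0.23 ± 0.074 in BT474R that did not pass the test, and the difference of 0.84 ± 0.11 (edgeR adjusted p = 7.9e-06) held with each library left out.

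Among DNA replication genes 13 of 40 had a smaller HRG effect in BT474R by the test. Of these 40 genes for origin licensing, replication forks and nucleotide supply, 38 rose in BT474 and 21 in BT474R, with median effects of 0.52 and 0.25. The difference was called lower in 13 (32.5%) and higher in none, against 4.07% of all genes, its median was -0.26 against -0.013 over all genes, and it was below 0 in all 40. RRM2, a subunit of ribonucleotide reductase, was at 121 and 112 CPM in BT474 vehicle, 208 and 214 in BT474 HRG, 292 and 317 in BT474R vehicle and 352 and 379.6 in BT474R HRG (difference -0.59 ± 0.10, edgeR adjusted p = 0.000498). Of the replicative helicase and its loaders, MCM10 went from 37 and 34 to 62.9 and 63.3 CPM in BT474 and from 49.3 and 52.9 to 64.9 and 66.6 in BT474R (-0.47 ± 0.097, edgeR adjusted p = 0.00287), and MCM6 from 105 and 103 to 169 and 166 and from 164 and 173 to 213 and 203 (-0.38 ± 0.082, edgeR adjusted p = 0.00391). The other called members were MCM3, MCM4, CDC6, CDC45, GINS4, PCNA, RFC3, POLA2, RRM1 and CLSPN. RRM2 kept its call with every library left out, but the list depended on 1 library: without BT474R vehicle replicate 2 the count of called members fell to 1, and with any other library left out it was at most 10, while the median difference stayed between -0.29 and -0.24.

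Cell cycle genes outside replication showed fewer calls. Among 36 mitosis genes, 32 rose in BT474 and 19 in BT474R, against 13.9% and 4.14% of all genes, and ANLN, CCNA2 and KIF11 were called lower (8.33%, against 4.07% of all genes called). ANLN, the cytokinesis scaffold anillin, had 133 and 129.6 CPM in BT474 vehicle, 216 and 213 in BT474 HRG, 120.4 and 123 in BT474R vehicle and 145 and 156 in BT474R HRG (difference -0.40 ± 0.076, edgeR adjusted p = 0.000929). Among 20 G1 genes, of which 3 (15%) were called, the cyclin genes CCNE2 (-0.40 ± 0.090) and CCND3 (-0.36 ± 0.098) were called lower. RBL2, a pocket protein that holds cells out of the cycle, was called higher, with 125 and 126 CPM in BT474 vehicle, 84.3 and 76.4 in BT474 HRG, 86.4 and 83.8 in BT474R vehicle and 70.5 and 69.3 in BT474R HRG (difference 0.36 ± 0.071, edgeR adjusted p = 0.00144). ANLN and RBL2 kept the call without each library, CCNE2 lost it without BT474R vehicle replicate 1 (adjusted p = 0.0521), KIF11 kept it only without BT474R vehicle replicate 1 and CCND3 only without BT474R HRG replicate 2 (up to 0.422 and 0.15). CCNA2 kept it without BT474 vehicle replicate 1, BT474R HRG replicate 2 or BT474R vehicle replicate 1 (up to 0.251). KIF11 was called in 4 of the 10 other alternatives, and lost its call with DESeq2, with its size factors, without a filter, with the replicate block within line and time point, with thinning and with copy rows summed. CCNA2 lost it without a filter, with thinning and with copy rows summed, and CCND3 without a filter and with thinning.

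Of 38 ribosome biogenesis genes, 30 rose in BT474 and 3 in BT474R (medians 0.33 and 0.11), and 7 (18.4%) were called lower, namely DDX21, UTP4, NOP58, NOLC1, NPM1, NOP56 and NOC2L. DDX21, an RNA helicase of the nucleolus, went from 191 and 183 to 288 and 297 CPM in BT474 and from 169 and 174 to 214 and 206 in BT474R (difference -0.36 ± 0.062, edgeR adjusted p = 0.000363). NOP58, a core protein of the methylation guide particles, had 72.7 and 69 CPM in BT474 vehicle, 101 and 101 in BT474 HRG, 57.1 and 56.2 in BT474R vehicle and 61.5 and 61.9 in BT474R HRG (difference -0.38 ± 0.072, edgeR adjusted p = 0.000833). Both kept the call without each library, while the list's count was 3 to 6 with 1 library left out (3 without BT474 vehicle replicate 2). UTP4 has copy rows in the table, so its value is uncertain.

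Of 32 genes of the ATF4 response, amino acid supply and tRNA charging, 18 rose in BT474 and 3 in BT474R, and 8 (25%) were called lower, PSAT1, MTHFD2, SLC7A5, SLC3A2, SLC1A4, SLC1A5, NARS1 and DDIT3. SLC7A5, the transporter of large neutral amino acids, was at 159 and 156 CPM in BT474 vehicle, 264 and 268 in BT474 HRG, 235 and 242 in BT474R vehicle and 249 and 264 in BT474R HRG. It rose by 0.76 (log2) in BT474 and the value in BT474R was 0.11 ± 0.064 (difference -0.66 ± 0.091, edgeR adjusted p = 1.17e-05). Its partner chain SLC3A2 went from 104 and 103 to 153 and 151 CPM in BT474 and from 77.3 and 81.5 to 78.8 and 84.1 in BT474R (difference -0.52 ± 0.067, edgeR adjusted p = 3.72e-06). PSAT1, of serine synthesis, had 61.5 and 61 CPM in BT474 vehicle, 87.3 and 87.5 in BT474 HRG, 90.4 and 93.1 in BT474R vehicle and 95.8 and 97.9 in BT474R HRG (difference -0.44 ± 0.079, edgeR adjusted p = 0.00062). The calls of SLC7A5, SLC3A2, PSAT1 and SLC1A5 held with each library left out, and with 1 library left out 4 to 7 members were called (4 without BT474 vehicle replicate 2).

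In the endoplasmic reticulum list of 16, 5 genes were called lower (31.2%), HSPA5, XBP1, CANX, HYOU1 and CRELD2. HSPA5, the chaperone BiP, had 441 and 418 CPM in BT474 vehicle, 450.0 and 472 in BT474 HRG, 793 and 807 in BT474R vehicle and 722 and 700.1 in BT474R HRG, so it fell in BT474R alone (by 0.17 on the log2 scale, difference -0.27 ± 0.060, edgeR adjusted p = 0.00525). All 5 were lost without BT474 HRG replicate 2, and CANX and HYOU1 have copy rows and lost the call with those summed and without a filter. With copy rows summed, 2 members of the list were called in all.

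**Figure D3:**
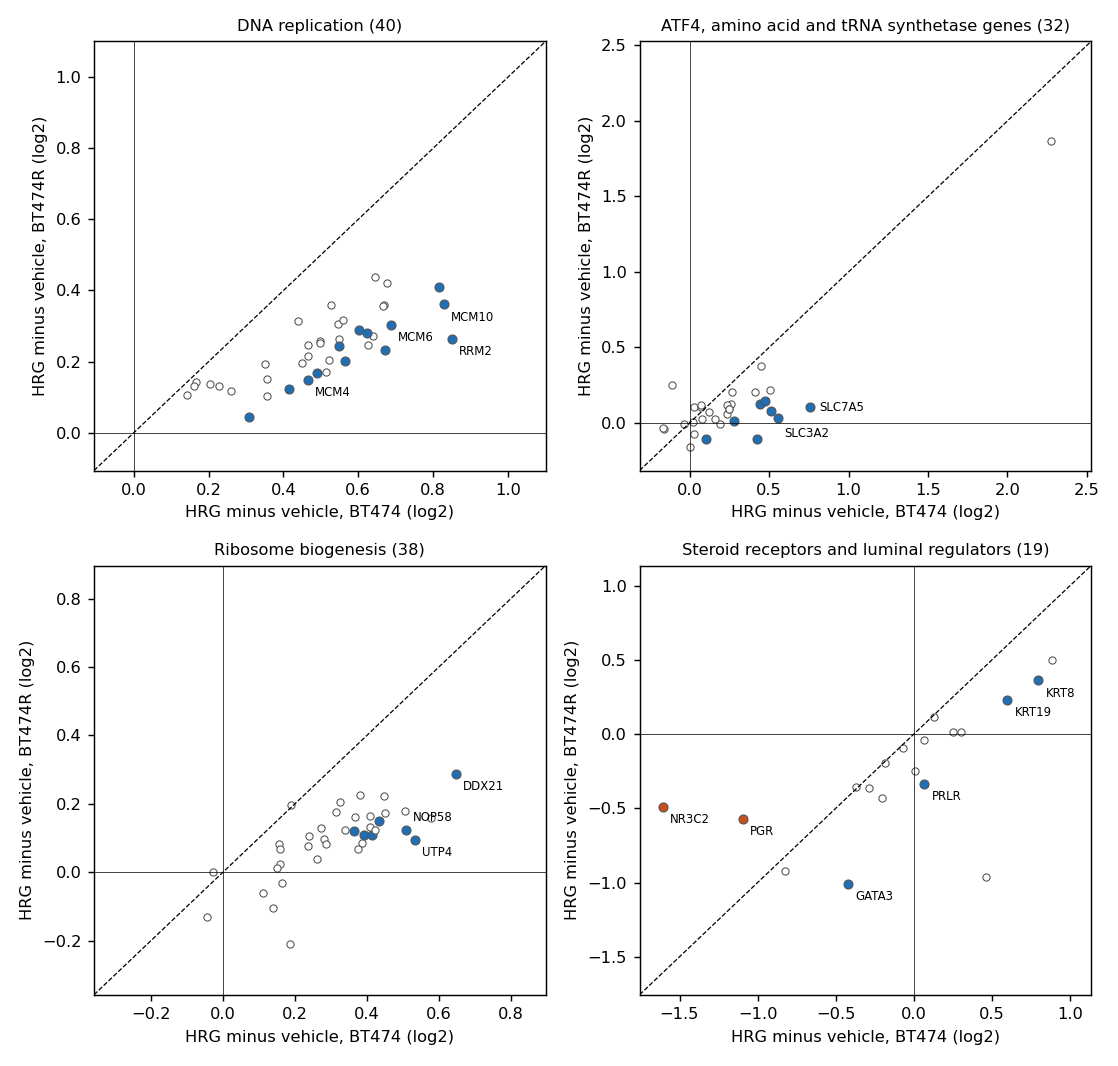
HRG minus vehicle at 12 h (log2) in BT474 (x axis) and BT474R (y axis) for the tested members of 4 gene lists, with filled points for members called lower (blue) or higher (orange) in BT474R and a dashed line for equal effects. All 40 DNA replication genes lie below the line, and most ribosome biogenesis and amino acid genes lie near 0 in BT474R.

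Luminal regulators split. Of 19, PGR and NR3C2 were called higher and GATA3, PRLR, KRT8 and KRT19 lower (31.6% in all). PGR, the progesterone receptor, fell in both lines, from 626 and 613 to 277 and 303 CPM in BT474 and from 29.5 and 26.9 to 19.8 and 18.1 in BT474R (difference 0.52 ± 0.13, edgeR adjusted p = 0.0129). NR3C2, the mineralocorticoid receptor, had 3.97 and 3.4 CPM in BT474 vehicle, 1.08 and 1.32 in BT474 HRG, 4.92 and 4.5 in BT474R vehicle and 3.5 and 3.18 in BT474R HRG (difference 1.11 ± 0.28, edgeR adjusted p = 0.0161). PRLR, the prolactin receptor, was at 689 and 667 CPM in BT474 vehicle, 691 and 729 in BT474 HRG, 721 and 693 in BT474R vehicle and 579.7 and 542 in BT474R HRG, a fall in BT474R of 0.33 (log2) with no change called in BT474 (difference -0.40 ± 0.089, edgeR adjusted p = 0.00506). KRT8 and KRT19, luminal keratins, rose in both lines and by less in BT474R (-0.44 ± 0.13 and -0.37 ± 0.088). ESR1, the estrogen receptor, fell by 0.83 in BT474 and by 0.92 in BT474R (95% interval of the difference -0.33 to 0.14). This difference did not pass the test. The glucocorticoid receptor NR3C1 fell by 0.37 and 0.36, and the epithelial ETS factor EHF by 0.19 and 0.20, while the pioneer factor FOXA1 and the ETS factor SPDEF passed the test in neither line, with differences of -0.019 and -0.017. KRT18, the partner keratin of KRT8, rose by 0.89 and 0.50, and its difference of -0.39 ± 0.13 missed the threshold (edgeR adjusted p = 0.106). The calls of PGR and NR3C2 were lost without replicate 1 of either BT474 group, BT474R HRG replicate 1 or BT474R vehicle replicate 2 (edgeR adjusted p up to 0.133 and 0.0958), PRLR without BT474 vehicle replicate 2 or BT474R HRG replicate 2 (0.0768), and KRT19 without BT474 vehicle replicate 2, BT474R HRG replicate 1 or BT474R vehicle replicate 2 (0.128). KRT8 kept its call only without BT474R vehicle replicate 1 (up to 0.252), and lost it with DESeq2, its size factors, another filter (filterByExpr) and summed copy rows. DESeq2 called 4 members of this list in all, beside 6 by edgeR.

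Of 27 hormone response genes, GREB1 was called higher and ALDH1A3, AGR2, PMEPA1 and XBP1 lower (18.5% in all, against 4.07% of all genes). GREB1, a cofactor of the estrogen receptor, fell from 227 and 223 to 144 and 143 CPM in BT474 and from 79 and 73.8 to 61 and 60.8 in BT474R (difference 0.33 ± 0.082, edgeR adjusted p = 0.0158). AGR2, a disulfide isomerase, rose from 338 and 329 to 625 and 623 CPM in BT474 and from 248 and 259 to 379 and 378 in BT474R (difference -0.32 ± 0.082, edgeR adjusted p = 0.0176). GREB1 kept its call without BT474 HRG replicate 1, BT474 vehicle replicate 2 or BT474R vehicle replicate 1, AGR2 only without BT474R vehicle replicate 1 and PMEPA1 only without BT474R HRG replicate 1 (edgeR adjusted p otherwise up to 0.131, 0.166 and 0.221). Thinning and summed copy rows also ended the call of PMEPA1.

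KRT7, a simple-epithelium keratin, went from 761 and 777 to 1322 and 1315 CPM in BT474 and from 1403 and 1496 to 1653 and 1684 in BT474R (difference -0.57 ± 0.085, edgeR adjusted p = 3.22e-05). With KRT80 and AQP3 it made 3 of the 30 tested keratinocyte genes called lower (10%, against 2.91% of all genes called lower), and none was called higher, while the differences over the 30 spanned -2.31 to 4.51. S100A16, another calcium-binding protein, had 378 and 401 CPM in BT474 vehicle, 764 and 779.7 in BT474 HRG, 393 and 392 in BT474R vehicle and 544 and 541 in BT474R HRG (difference -0.52 ± 0.078, edgeR adjusted p = 4.49e-05). ITGB6, the epithelial integrin that activates TGF-beta, rose from 39.8 and 35.3 to 140.0 and 140.4 CPM in BT474 and from 38.3 and 45.9 to 75 and 77.2 in BT474R (difference -1.05 ± 0.12, edgeR adjusted p = 3.79e-07). TGFB3, a TGF-beta ligand, rose in BT474 from 132 and 129 to 186 and 189.8 CPM and was at 85.7 and 88.6 in BT474R vehicle and 91 and 85.9 in BT474R HRG (difference -0.51 ± 0.093, edgeR adjusted p = 0.000684). All 4 kept the call without each library.

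Lipid and glucose genes held few calls of a difference. Against 4.07% of all genes, 5.26% of the fatty acid list and 6.06% of the glycolysis and hypoxia list were called. Of 25 sterol synthesis genes 18 rose in BT474 and 8 in BT474R. Of 19 fatty acid synthesis genes ACSL3, which activates fatty acids, was called lower (-0.34 ± 0.059, edgeR adjusted p = 0.000363). Of 33 glycolysis and hypoxia genes, 22 rose in BT474 and 7 in BT474R, and EGLN3 and VEGFA were called lower. EGLN3, an oxygen sensor, was at 75.8 and 75.2 CPM in BT474 vehicle, 192 and 183 in BT474 HRG, 203 and 280.2 in BT474R vehicle and 289 and 341 in BT474R HRG (difference -0.93 ± 0.20, edgeR adjusted p = 0.00373). Here the BT474R vehicle libraries differed from each other: without replicate 2 the call was lost (adjusted p = 0.102), and the list's median difference of -0.23 ranged from -0.44 to -0.013 over the 8 libraries left out in turn. VEGFA, a growth factor for vessels, kept its call without replicate 2 of either HRG group or BT474R vehicle replicate 1 and lost it without any other library (up to 0.269).

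Other lists held 3 calls or fewer, and their shares stand against 4.07% of all genes. Nuclear genes of oxidative phosphorylation had 2 of 30 (6.67%, CYCS and ATP5MC3, lower). The Hippo pathway had 2 of 15 (13.3%, TEAD1 lower, AMOTL1 higher) and retinoic acid genes 1 of 17 (5.88%, ALDH1A3). TGF-beta and mesenchymal genes had 2 of 26 (7.69%, ITGB6 and TGFB3). Metallothioneins and S100 proteins had 3 of 16 (18.8%, S100A14, S100A16 and S100A13, all lower). The 36 interferon, 20 NF-kB and 8 mucin genes tested had 0 called by edgeR, with 3, 2 and 3 at an unadjusted p below 0.05. DESeq2 and limma-voom each called 1 interferon gene and 0 of the others. CYCS, cytochrome c, lost its call without replicate 2 of either vehicle group (edgeR adjusted p up to 0.0977), AMOTL1 without BT474 HRG replicate 1, BT474R HRG replicate 2 or BT474R vehicle replicate 2 (up to 0.0961), and ATP5MC3 and S100A13 whichever library was left out (up to 0.198 and 0.277). Both also lost it with DESeq2 size factors and summed copy rows, and S100A13 without a filter and with thinning. TEAD1 kept it only without replicate 1 of either HRG group (up to 0.146).

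**Figure D4:**
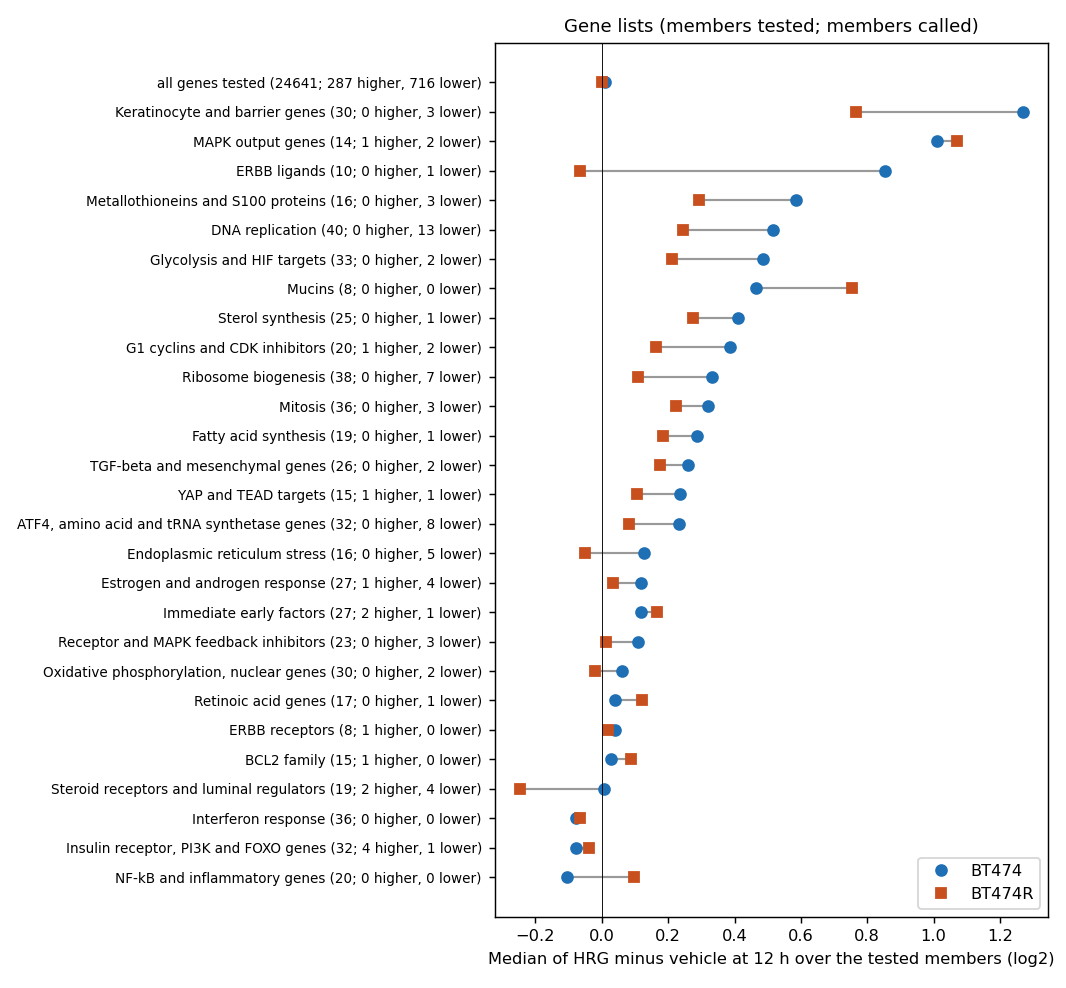
Median HRG minus vehicle at 12 h (log2) over the tested members of each gene list, in BT474 (blue circles) and BT474R (orange squares), with the numbers of members tested and called beside each name. The medians lie further from 0 in BT474 for keratinocyte, replication, glycolysis and ribosome biogenesis genes and are 1.01 and 1.07 for MAPK output genes.

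The 24 h and 1 h libraries are separate from those at 12 h and show when the difference was present. At 24 h the HRG effect differed between the lines for 821 genes (3.33%), and at 1 h for 134 (0.544%). Of the 1003 genes, 924 (92.1%) had the same sign of difference at 24 h, compared with 61% of all genes tested, 307 (30.6%) were called in the same direction and 1 in the opposite direction. Their median was -0.29 at 12 h and -0.14 at 24 h. At 1 h, 645 (64.3%) had the same sign, compared with 54.6% of all genes, and 17 were called in the same direction and 2 in the opposite one. With only the 8 libraries compared in the fit the count at 24 h was 94, and that at 1 h was 217. The count at 24 h rose without either BT474R HRG library of that time point and fell without any other library compared. Those BT474R HRG libraries, replicates 1 and 2, had TMM factors of 0.984 and 0.951. They had 13.5% and 14.8% of their counts on the 50 highest genes. A gene not called at 24 h was therefore not shown to respond alike in both lines. The count at 1 h moved to 80, 85 and 89 without BT474R vehicle replicate 2, BT474 vehicle replicate 2 and BT474 HRG replicate 1.

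KRT80, TNC, DUSP4 and S100A14 differed again at 24 h, by -1.06, -1.14, -1.03 and -0.50 on the log2 scale (edgeR adjusted p = 7.19e-11, 1.82e-11, 1.17e-11 and 3.22e-07). So did AQP3 (-1.82), SLC7A5 (-0.82), BMF (0.73) and MAML2 (1.76). Of the genes named for the size of their difference, only AQP3, MAML2, H19 (-2.59), ALDH1A3 (-0.85) and PLXNA2 (-1.01) were called at 24 h. Among the others, GAL was at -0.66 (edgeR adjusted p = 0.643), BTN3A2 at 0.38 and SPINK8 at 0.31. THBS3-AS1 was at 0.043 and MAILR at -0.0066, and COL4A1, lower at 12 h, was at 0.45. AREG, which missed the threshold at 12 h, differed at 1 h by -2.10 ± 0.30 and at 24 h by -2.53 ± 0.47 (edgeR adjusted p = 2.6e-05 and 0.000776). At 1 h DUSP4 and KRT80 differed as well, by -0.48 and -0.33 (edgeR adjusted p = 6.61e-05 and 0.0374). MYC turned over time: at 1 h it rose more in BT474, by 1.27 against 0.42 (difference -0.85, edgeR adjusted p = 0.000218), at 12 h more in BT474R, and at 24 h the difference of 0.58 ± 0.25 did not pass the test (adjusted p = 0.25). HRG against vehicle changed 542 genes in BT474 (2.2%) and 68 in BT474R (0.276%) at 1 h, and 5349 (21.7%) and 1137 (4.61%) at 24 h. GATA3 at 24 h fell by 0.69 in BT474 and by 0.70 in BT474R (difference -0.015 ± 0.14, edgeR adjusted p = 0.994). Of the 40 replication genes 0 were called at 24 h by edgeR, DESeq2 or limma-voom and 5 had an unadjusted p below 0.05 in edgeR, with a median difference of -0.015 and medians within the lines of 0.29 and 0.29. Some other lists held more calls at 24 h than at 12 h: of 36 mitosis genes 10 were called at 24 h, all lower, and of 23 feedback inhibitors 9, with 7 lower and 2 higher, beside 3 and 3 at 12 h. The test of 24 h against 12 h itself, which shares the 12 h libraries, called 22 genes (0.0893%; 1585 at an unadjusted p below 0.05, and 7 to 129 adjusted with 1 library left out, the highest without BT474R HRG replicate 1 at 24 h and the lowest without BT474 HRG replicate 2 at 12 h), so most of these changes over time were not shown to differ.

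**Figure D5:**
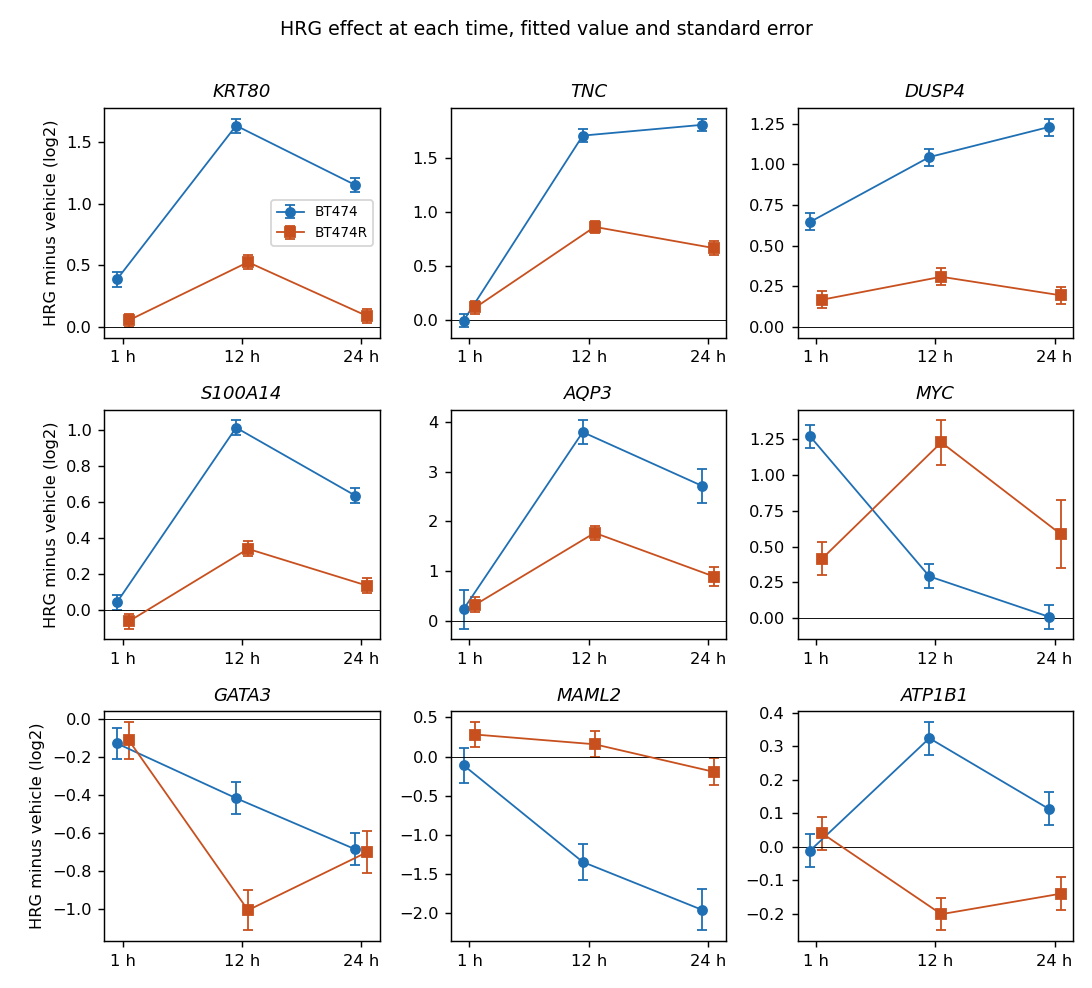
HRG minus vehicle (log2, fitted value ± SE, 2 libraries per group) at each time point (1 h, 12 h, 24 h) for 9 genes in BT474 (blue circles) and BT474R (orange squares), with times as evenly spaced categories. KRT80, TNC and DUSP4 stay lower in BT474R at 12 h and 24 h, MYC is higher in BT474 at 1 h and in BT474R at 12 h, and GATA3 is lower in BT474R at 12 h and at a similar value in both lines at 24 h.

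EGF, the ligand of EGFR, was also given for 12 h. It changed 3337 genes in BT474 (13.5%) and 3661 in BT474R (14.9%), and its effect differed between the lines for 484 genes (1.96%), 229 higher and 255 lower in BT474R. This comparison shares the vehicle libraries with that of HRG, so its values are set side by side only. Of the genes with a smaller rise in BT474R named first, KRT80, S100A14 and TAGLN2 had differences with EGF of -0.24, -0.18 and -0.22 that passed no test, beside -1.11, -0.67 and -0.76 with HRG. TNC, DUSP4 and ALDH1A3 differed with EGF too, by -0.37, -0.37 and -0.85 (edgeR adjusted p = 0.0071, 0.00189 and 0.00801), beside -0.85, -0.74 and -1.84 with HRG. PLXNA2 differed by -0.95 with EGF (edgeR adjusted p = 0.0152), beside -1.49 with HRG. For ARHGDIB, MYC, GATA3 and MYOF the difference with EGF was 1.85, 1.75, -1.46 and 1.06, beside 1.32, 0.94, -0.59 and 0.33 with HRG. For ATP1B1, DEPTOR, FAM214B and SLC7A2 it was -0.42, 0.85, 0.71 and 0.36 with EGF, beside -0.53, 0.72, 0.64 and -0.40 with HRG. Over the 40 DNA replication genes the median difference was -0.256 with EGF, beside -0.259 with HRG. Over the 16 endoplasmic reticulum genes it was -0.175 with EGF, beside -0.181 with HRG. For the ribosome biogenesis and ATF4 lists it was nearer 0 with EGF, at -0.084 and -0.065, beside -0.22 and -0.15 with HRG. A direct comparison of HRG with EGF between the lines, which uses no vehicle library, called 574 genes (2.33%), 189 higher and 385 lower in BT474R. With any 1 library left out the EGF count was 286 to 361 (lowest without BT474R EGF replicate 1) and the direct count 292 to 400 (lowest without BT474 EGF replicate 1). KRT80 (-0.86 ± 0.078), SLC7A2 (-0.75) and MYOF (-0.73) were lower in it and GATA3 (0.87) and SPINK8 (1.86) higher.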

How the data were processed

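RNA-seq of both cell lines gave 40 libraries, and the comparison uses 8 of them. The authors checked and trimmed the reads with FastQC and Trim Galore 0.6.6, aligned them to GRCh38.p13 and counted them on genes with featureCounts, per the labels and the study's methods, and deposited raw counts that are neither normalized nor filtered. The annotation release, strand setting and treatment of reads with several places are not given in the sources used here.

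All 40 libraries entered 1 fit with 20 groups. edgeR 4.0.16 in R 4.3.3 scaled the counts by TMM (factors 0.949 to 1.06 for the 8) and tested each contrast by the quasi-likelihood F test on the 24641 of 44584 rows that had 1 count or more in 20 or more libraries, with Benjamini-Hochberg adjustment over all of them and a threshold of 0.05. CPM is scaled to 1000000 counts and by TMM, and an effect is a log2 difference with its standard error. That error was derived from the F statistic. Intervals use it with a normal quantile, so they are approximate. Depth limits precision, and the floor of 3 counts covers counting error only. The 5078 numbered copies of gene names (2.96% of counts) stayed separate rows. Transcripts of the mitochondrial genome are not analysed here.

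Genes are named by rule: per direction, the 12 with the largest difference among called genes with a mean of at least 1 CPM, a plain symbol, more than 3 counts in each group and separate library pairs, genes called in both lines in opposite directions, up to 6 called in both with a larger and up to 6 with a smaller effect in BT474R, up to 4 called members of each list by p, and all receptors, ligands and steroid receptors. Members of some lists beyond these are named by symbol in their counts. A few genes that the rule takes in are not reported here. The comparison, its members and the lists were chosen with earlier results of these data known.

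Alternatives were DESeq2 1.42.0, its size factors, limma 3.58.1 with voom, other filters, only the libraries compared, thinning to equal depth, summed copy rows, replicate blocks and each library left out. The replicate numbers were not shown to pair the samples: deviations of equal numbers correlated by -0.035 to 0.092 between groups over 14998 genes. The test was tested on simulated data. Promoters are from RefSeq on GRCh38.p14, matched by symbol.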

Additional observations from a re-analysis of the deposited data

Results flagged for a closer look

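The results listed here were marked because the HRG effect differed between BT474R and BT474 by a test of the difference itself, the interaction term of the edgeR fit. Values are the HRG effect in BT474R minus that in BT474 at 12 h on the log2 scale. The test called 1003 genes for HRG at 12 h. It called 134 for HRG at 1 h, 821 for HRG at 24 h, 484 for EGF at 12 h, 574 for HRG against EGF at 12 h and 22 for 24 h against 12 h. Genes with a larger rise in BT474R, or with a fall that passed the test in BT474 alone, were BEND5 (2.33), BTN3A3 (2.15), GPAT3 (1.90), THBS3-AS1 (1.84), SPINK8 (1.79), FOXD3-AS1 (1.70), MAILR (1.68), BTN3A2 (1.63), COL2A1 (1.59), MAML2 (1.50), TENM4 (1.45) and HOXB6 (1.42).

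Genes with a rise that was smaller in BT474R or passed the test in BT474 alone were GAL (-2.98), CTB-3M24.3 (-2.63), AQP3 (-2.02), H19 (-1.90), RGS6 (-1.88), ALDH1A3 (-1.84), COL4A1 (-1.63), CPLX2 (-1.54), PLXNA2 (-1.49), SERPINA3 (-1.45), MSRB3 (-1.44), KRT80 (-1.11), S100A14 (-0.67), TNC (-0.85), DUSP4 (-0.74) and TAGLN2 (-0.76). CA2 (-1.46) fell in BT474R.

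Opposite directions were seen for ATP1B1 (-0.53), FAM214B (0.64), DEGS1 (-0.51), NEBL (-0.44), DEPTOR (0.72), FBXO28 (-0.48), SLC7A2 (-0.40), NIBAN1 (-0.68) and IQGAP2 (0.61). A larger change in BT474R in the same direction was seen for ARHGDIB (1.32), MYC (0.94), MYOF (0.33), GATA3 (-0.59) and SEMA5A (0.50).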

How the results depend on the processing

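Of the 1003 genes whose HRG effect differed at 12 h, 544 were called in every alternative other than leaving out a library that gave them a value, and in each of these alternatives every gene of the 1003 with a value kept the direction of its difference. The count was 667 after thinning to equal depth and 2104 when only the 8 libraries compared were fitted, whose spread was then estimated without the other 32. With the other alternatives it was between 835 and 1281. The share of called genes with a higher effect in BT474R was 28.6%, and it was 39.8% without a filter, 36.3% with copy rows summed, and 41.8% and 41.6% without BT474 vehicle replicate 2 and BT474R vehicle replicate 2. No scaling moved the median of all genes by more than 0.016.

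With 1 library left out, counts were 385 to 681 for the difference at 12 h, 3834 to 4441 for HRG in BT474 (5816 in full), 688 to 1108 for HRG in BT474R (1606), 10034 to 10628 for the lines in vehicle (12081, 49% of genes tested), 80 to 154 at 1 h, 477 to 1710 at 24 h, 286 to 361 for EGF, 292 to 400 for HRG against EGF and 7 to 129 for 24 h against 12 h. HRG in BT474R gave 1000 genes with each line fitted on its own. At 1 h the count was 225 without a filter and 217 with only the libraries compared. That last setting also gave 94 genes at 24 h, 1348 for EGF, 1717 for HRG against EGF and, by edgeR, 0 for 24 h against 12 h (1585 at an unadjusted p below 0.05 with all libraries fitted). For 24 h against 12 h the count was 39 with DESeq2 and 129 without a filter.

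The replicate numbers were not shown to pair the samples. With the replicate number as a block 1092 genes were called at 12 h, and with a replicate block within each line and time point 1281, and that block gave 51 genes for 24 h against 12 h.

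Among single genes, results that changed sign had not been called. With thinning, SHC1 was at 0.035, EGF at -0.11, NR3C1 at -0.088 and EHF at 0.013. EHF was at 0.00078 with DESeq2, 0.000094 with its size factors, 0.00034 without a filter and 0.0060 with copy rows summed. With 1 library left out, values lay between -0.029 and 0.33 for EGF, -0.52 and 0.66 for HBEGF, -5.10 and 2.13 for NRG2, -0.46 and 0.27 for NRG3, -0.039 and 0.099 for NR3C1, -0.065 and 0.045 for FOXA1, -0.065 and 0.029 for SPDEF and -0.037 and 0.022 for EHF. The cause of these changes was not tested. Each group has 2 libraries, which limits the test, and for genes near the floor of 3 counts depth limits it too.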
